A study of Mus musculus with 11 samples.

Results

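Hyaluronan is an unbranched sugar polymer that is spun out through the plasma membrane by the hyaluronan synthases, held in the matrix by large proteoglycans and link proteins, bound by receptors on the cell surface and cut into fragments by hyaluronidases. It fills the loose matrix of embryonic mesenchyme, that of the fetal lung included, and its amount and chain length change as tissues mature. The 10 genes described here cover these roles and were chosen by symbol: the synthases Has1, Has2 and Has3, the hyaluronidases Hyal1 and Hyal2, the hyaluronan-binding proteoglycans Vcan and Acan, the link protein Hapln1, the receptor Cd44, and Tnfaip6, which moves protein heavy chains onto hyaluronan. They are 10 of the 24062 genes counted in the files, and all 10 were found. Hyaluronan itself was not measured, so every value below is an mRNA level.

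RNA-seq was performed on primary mesenchymal cells from embryonic day 15 mouse lungs that were WT (Sp3+/+, 4 libraries), Sp3+/- (4 libraries) or Sp3-/- (3 libraries). Sp3 is a zinc finger transcription factor that binds GC-rich promoter sequences, and both mutant genotypes carry a germline mutation, so Sp3 was lacking in all cell types of the Sp3-/- lungs before culture. All cells were untreated, had been obtained by their rapid adhesion to culture plastic and were passaged, which enriches for mesenchyme and does not sort for it. The labels do not say whether libraries of a genotype came from separate animals or cultures, so p-values measure the spread between these libraries only.

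Reads on genes numbered 14113788 to 35351093 in WT libraries, 13842791 to 59297495 in Sp3+/- and 9849111 to 45630738 in Sp3-/- libraries. Sp3 itself was present at 5.92 to 6.75 log2 CPM in WT, 5.70 to 6.16 in Sp3+/- and 3.86 to 4.24 in Sp3-/- cells, where log2 CPM is the base 2 logarithm of CPM, a gene's counts scaled to a common library size, after TMM scaling, a correction for differences in RNA composition between libraries. Library titles end in no suffix, 2 or 3, and no source explains the suffix. All 3 Sp3-/- libraries, WT library 468-4 and Sp3+/- library 697-4 have none, whereas the other 3 WT libraries have suffix 3, so genotype and suffix can hardly be told apart. Lung mesenchyme markers (11 of 11 counted) summed to 13100 to 22100 CPM in WT, 14900 to 22300 in Sp3+/- and 7100 to 19100 in Sp3-/- libraries, with 4 called lower in Sp3-/- cells. Most of this sum came from Col1a1, Col1a2, Vim and Col3a1, with WT means of 7700, 6050, 2890 and 2100 CPM. The next highest was Pdgfrb with 421, and Tbx4 had 53.1. Macrophage markers (12 of 13 listed were counted, none of them at 0 throughout any genotype) summed to 633 to 3450 CPM in WT, 387 to 3220 in Sp3+/- and 3300 to 12100 in Sp3-/- libraries, and 6 were called higher in Sp3-/- cells. Mesothelial markers (8 of 8) summed to 746 to 1820, 1530 to 2720 and 2170 to 6350 CPM, respectively, with 4 called higher. Epithelial markers (7 of 7) reached at most 31.4 CPM in WT, 28.5 in Sp3+/- and 112 in Sp3-/- libraries, with 3 called higher. In Sp3-/- libraries Krt18 alone held 36.5 to 104 CPM, Cdh1 2.53 to 5.91 and Epcam 0.609 to 1.2. Nkx2-1 and Sftpc held at most 0.14 and 0.1 CPM there, against at most 1.16 and 4.51 in WT, and Sftpb and Cldn6 at most 0.1 and 0.476. Endothelial (8 of 8) and chondrocyte (7 of 8) markers summed to at most 75.6 and 23.4 CPM in any library, with none called. Erythroid markers (6 of 6) summed to at most 16.1 CPM, with 1 called higher and the 4 globin genes at 0 in all libraries. In such bulk RNA, fewer cells of a type and less RNA per cell cannot be told apart.

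Because Sp3 and its relatives recognise GC boxes, the promoters of the genes on which the comparison of genotypes turns were read for these letters. A GC box was searched as GGGGCGGGG and as its core GGGCGG, and a GT box as GGTGTGGGG, on both strands, with the longer GC box containing the core. RefSeq promoters of GRCm38.p6, each a window of 300 bases, were found for 8 of the 10 genes, all except Has2 and Has3. The windows of Hyal2, Vcan and Has1 do not contain the outermost start of the gene, so their matches do not describe that start. The promoters of the neighbouring hyaluronidase genes Hyal1 and Hyal2 and that of Vcan are shown 5′ to 3′ in the direction of transcription, with GC box matches, core or longer, in capitals, both where they read as given above and where they read as the reverse complement. Their windows are chr9:107576700-107576999 (+ strand), chr9:107568913-107569212 (+ strand) and chr13:89742463-89742762 (- strand).
Hyal1: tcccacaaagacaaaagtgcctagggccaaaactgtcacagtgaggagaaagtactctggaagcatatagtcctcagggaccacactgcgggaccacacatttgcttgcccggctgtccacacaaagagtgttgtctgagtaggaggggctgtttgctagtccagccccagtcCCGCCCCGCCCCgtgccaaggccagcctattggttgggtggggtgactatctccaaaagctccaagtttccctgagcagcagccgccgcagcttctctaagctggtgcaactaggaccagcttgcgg
Hyal2: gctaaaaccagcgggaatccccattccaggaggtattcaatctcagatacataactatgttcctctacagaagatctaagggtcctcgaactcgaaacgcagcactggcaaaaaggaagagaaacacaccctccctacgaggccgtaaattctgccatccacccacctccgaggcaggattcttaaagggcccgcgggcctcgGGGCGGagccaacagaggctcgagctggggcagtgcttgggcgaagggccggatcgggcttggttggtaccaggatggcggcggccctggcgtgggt
Vcan: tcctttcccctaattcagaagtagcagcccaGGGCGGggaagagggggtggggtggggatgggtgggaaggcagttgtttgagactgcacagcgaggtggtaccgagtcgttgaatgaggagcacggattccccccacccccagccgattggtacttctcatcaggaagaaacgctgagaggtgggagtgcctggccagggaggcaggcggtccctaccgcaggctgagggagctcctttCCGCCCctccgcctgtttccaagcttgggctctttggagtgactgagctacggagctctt

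The Hyal1 window held 2 cores that share a base and 1 match to the longer GC box, and it was the only one of the 8 windows with the longer match. That match was present in 3760 of 32851 promoters in the table (11.4%). The core occurred in 35.7% of all promoters and in 6 of the 8 windows, with 3 matches in Acan, 2 in Vcan and 1 each in Hyal2, Cd44 and Tnfaip6. Hapln1 and Has1 had no core, and none of the 8 held a GT box, which 0.791% of all promoters contain. These matches describe letters in the windows and are not evidence of binding.

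Per kilobase of transcript, the receptor and the large proteoglycan were the most abundant of the 10 mRNAs in WT cells. Levels compared between genes are RPKM, which is CPM per kilobase, over the exons of each gene in GENCODE vM39. In WT cells Cd44 stood at 25.5 ± 5.8 RPKM (SD, n = 4), Vcan at 14.4 ± 5.7, Hyal2 at 9.11 ± 0.47, Hyal1 at 7.33 ± 1.0 and Has2 at 4.82 ± 1.1. Tnfaip6 was at 1.24 ± 0.44 RPKM, and Has1, Has3, Acan and Hapln1 averaged 0.378, 0.278, 0.249 and 0.0534. The ranges of neighbours in this order met except for 4 steps: from Cd44 to Vcan, from Hyal2 to Hyal1, from Has2 to Tnfaip6 and from Tnfaip6 to Has1. The order in Sp3+/- cells differed in that Hyal1 (9.08 ± 2.0) stood level with Hyal2 (9.03 ± 0.85), and in that Acan (0.391 ± 0.46) stood above Has1 and Has3, with overlapping ranges. In Sp3-/- cells Hyal1 came second with 14.7 ± 2.9 RPKM (SD, n = 3), above Hyal2 with 10.3 ± 0.76 and Vcan with 7.48 ± 1.8, while Cd44 remained first at 25.7 ± 7.4.

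The comparison of Sp3-/- with WT cells asked which of these mRNAs differ when Sp3 is lost. Hyal1 rose 2-fold in Sp3-/- cells, and it was the only one of the 9 genes tested that passed the threshold. The lower means of Has2, Vcan and Acan did not pass it, and Has1, Has3, Hyal2, Cd44 and Tnfaip6 had fitted changes between -0.48 and 0.17 on the log2 scale. The test was edgeR's quasi-likelihood test on all genes that exceeded 1 CPM in some library of the fit, and a gene was called at a Benjamini-Hochberg adjusted p below 0.05 over all genes. By this rule 18.5% of the 14025 genes tested were called (8.76% higher and 9.77% lower), and 1 of 9 hyaluronan genes is not a larger share than that. Their median log2 fold change was -0.28, against -0.003 over all genes, with 3 genes higher and 6 lower.

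**Figure D1:**
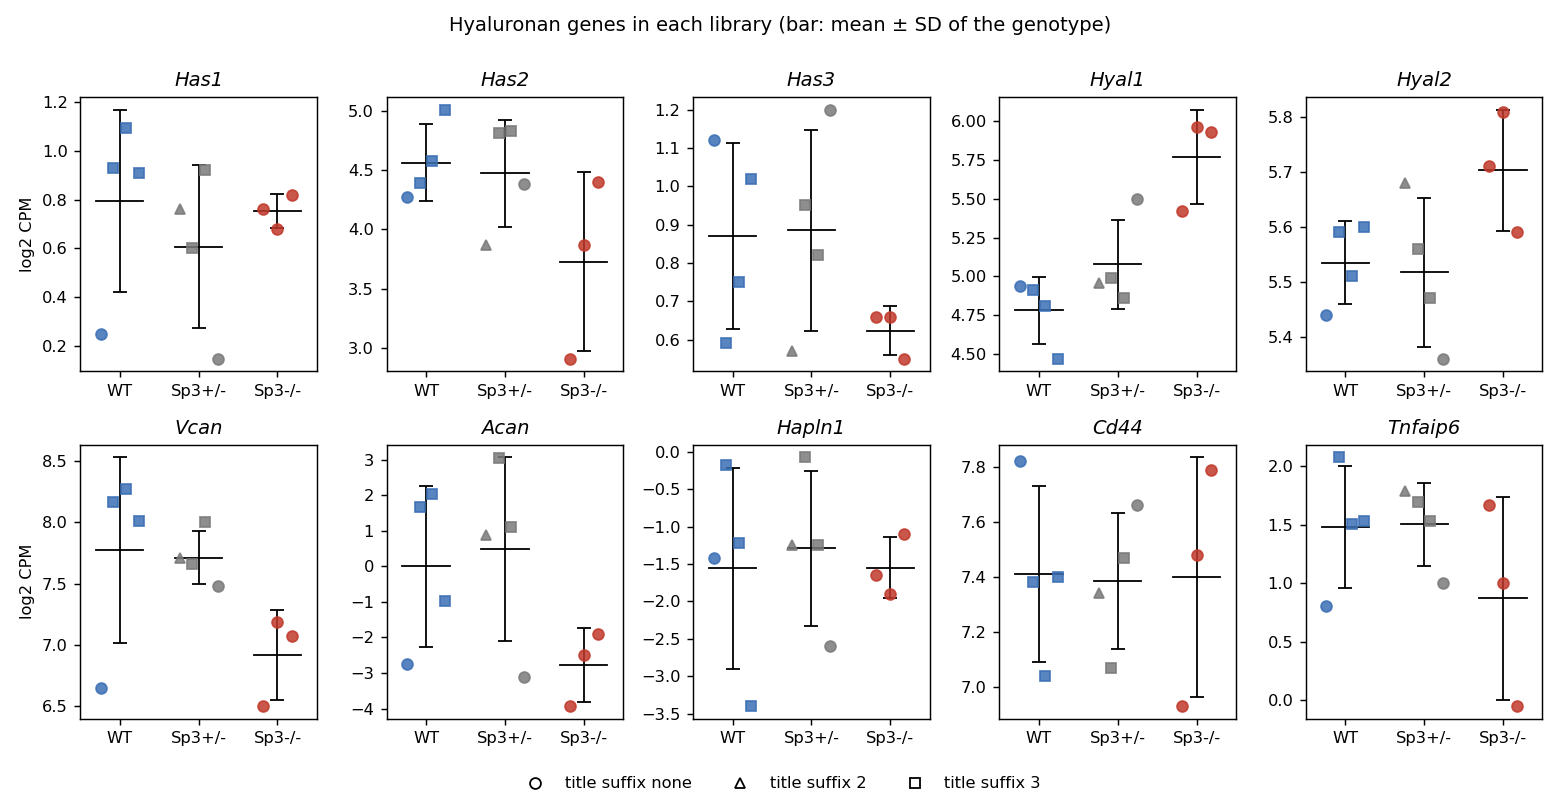
Level of each of the 10 genes in each library in log2 CPM (vertical axes, which differ between panels) by genotype (horizontal axes). Symbols mark the suffix of the library title, and bars the mean ± SD. The 3 Sp3-/- libraries lie above all 4 WT libraries for Hyal1, while for Vcan and Acan WT library 468-4 lies among the Sp3-/- libraries.

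Has2 encodes the main hyaluronan synthase of the embryo and was by far the most abundant of the 3 synthases. It measured 4.27, 4.39, 4.58 and 5.01 log2 CPM in WT libraries 468-4, 685-2, 697-1 and 697-3. The Sp3+/- libraries 468-3, 685-5, 685-7 and 697-4 measured 3.87, 4.81, 4.83 and 4.38, and the Sp3-/- libraries 685-1, 697-2 and 697-5 measured 2.91, 3.87 and 4.40. Of the Sp3-/- libraries, 685-1 and 697-2 lay below every WT library and 697-5 lay within the WT range. The fitted log2 fold change against WT was -0.75 (standard error, SE, 0.36, 95% interval -1.59 to 0.08, adjusted p = 0.1685, edgeR), and it was -0.44 without Sp3-/- library 685-1 and -1.14 without Sp3-/- library 697-5 (adjusted p = 0.0776, edgeR). Has2 was called lower, with -1.05 (adjusted p = 0.0445), by limma-voom when libraries that share a first label number were allowed to be correlated. Within label number 685 the Sp3-/- minus WT difference in log2 CPM was -1.48, and within 697 it was -0.66. Within both numbers the WT libraries have suffix 3 and the Sp3-/- libraries none, so these differences do not separate genotype from suffix. Number 468 holds no Sp3-/- library.

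Has1 and Has3, the other two synthases, were scarce. Has1 measured 0.25, 0.93, 1.09 and 0.91 log2 CPM in the 4 WT libraries, in the order used for Has2, and 0.76, 0.68 and 0.82 in the Sp3-/- libraries. Has3 measured 1.12, 0.59, 0.75 and 1.02 in WT and 0.66, 0.66 and 0.55 in Sp3-/- libraries. The genotypes overlapped for both genes, with log2 fold changes of -0.08 (SE 0.29, adjusted p = 0.8588, edgeR) for Has1 and -0.28 (0.25, 0.4479) for Has3. Neither was called in any of the 18 alternative settings, although Has1 turned to higher values when only libraries without a suffix were set against each other (0.51). The overlapping genes Spaca6, Has2os and Hyal3 may have added reads to, or taken reads from, the counts of Has1, Has2 and Hyal1, respectively. The overlap and strand settings of the counting are not given in the sources used here. Per length, Has2 made up 86.9% to 90.1% of the synthase mRNA in WT, 83.3% to 90.2% in Sp3+/- and 71.5%, 83.6% and 87.6% in the Sp3-/- libraries 685-1, 697-2 and 697-5, so the same library that was lowest in Has2 was lowest in this share.

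Hyal1, the lysosomal hyaluronidase that cuts hyaluronan into small oligosaccharides, is on chromosome 9 of GRCm38.p6 from 107576950 to 107581699. It measured 4.94, 4.91, 4.81 and 4.47 log2 CPM in the WT libraries and 5.42, 5.96 and 5.93 in the Sp3-/- libraries 685-1, 697-2 and 697-5. The lowest Sp3-/- library stood above the highest WT library, which no other gene of the 10 showed in either direction. The share of all genes whose libraries separate in this way was not counted, so the separation is not shown to be particular to Hyal1. The Sp3+/- libraries measured 4.96, 4.99, 4.86 and 5.50, of which 697-4 lay within the Sp3-/- range and 468-3 and 685-5 just above the WT range. The fitted log2 fold change of Sp3-/- against WT was 1.00 (SE 0.18, 95% interval 0.59 to 1.41, adjusted p = 0.0153, edgeR). It ranged from 0.90 to 1.15 with each of the 7 libraries left out in turn, and without Sp3-/- library 697-2 the adjusted p was 0.0646 (edgeR). With the title suffix as a covariate the change was 0.70 and no longer called (adjusted p = 0.0812, edgeR), in a fit of all 11 libraries that called 9.41% of genes. The 3 Sp3-/- libraries against the lone WT library without a suffix also gave no call for Hyal1, in a fit that called none of 13752 genes with edgeR and held 1337 at an unadjusted p below 0.05 (Hyal1 0.84, adjusted p = 0.4856).

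Hyal2, a hyaluronidase tethered to the cell surface that makes the first cut of long chains, lies beside Hyal1 on chromosome 9, from 107567873 to 107572778. It measured 5.44, 5.59, 5.51 and 5.60 log2 CPM in WT and 5.71, 5.81 and 5.59 in Sp3-/- libraries. These ranges met at their edges, and the log2 fold change was 0.17 (SE 0.09, 95% interval -0.03 to 0.37, adjusted p = 0.2002, edgeR). Its spread between WT libraries, an SD of 0.07, was the narrowest of the 10 genes. Per length, Hyal1 made up 38% to 48.8% of the sum of Hyal1 and Hyal2 in WT libraries, 45% to 59.8% in Sp3+/- and 52.5% to 63% in Sp3-/- libraries. Between these neighbours, 1 gene was called and the other was not, and the difference between their changes was not tested. Of the other 11 genes within the surrounding 50 kb on either side, 9 were tested and none was called, with the largest change in Tusc2 (0.47, adjusted p = 0.0625, edgeR). The third hyaluronidase gene of this cluster, Hyal3, overlaps the end of Hyal1 and had a log2 fold change of 0.35 (adjusted p = 0.4781, edgeR).

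The levels of Hyal1 and of macrophage markers were both high in Sp3-/- libraries. The macrophage markers summed to 3300, 12100 and 11000 CPM in Sp3-/- libraries 685-1, 697-2 and 697-5, in which Hyal1 measured 5.42, 5.96 and 5.93 log2 CPM. In the 3 libraries with sums between 3220 and 3450 CPM, Hyal1 was at 4.94 in WT (468-4), 5.50 in Sp3+/- (697-4) and 5.42 in Sp3-/- (685-1). Library 468-4 had the highest macrophage sum of the WT libraries and also their highest Hyal1 level, just above the 4.91 of library 685-2. The part of macrophages, and of mesothelial cells, in the Hyal1 level was not tested.

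**Figure D2:**
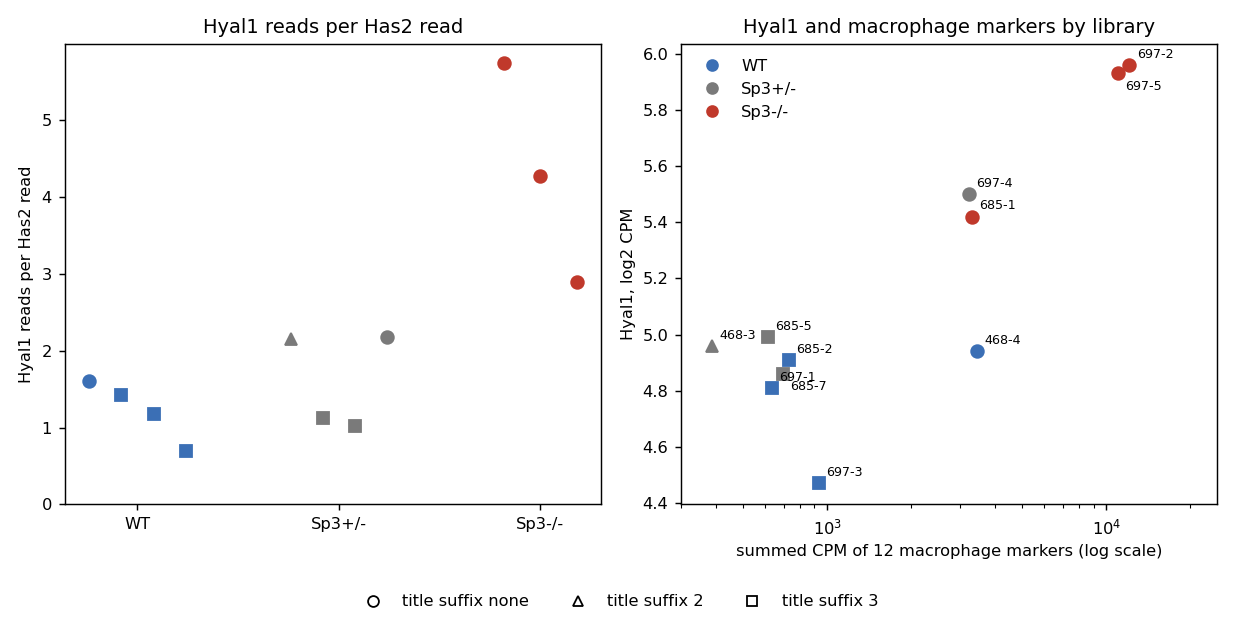
Left, Hyal1 reads per Has2 read in each library (linear axis from 0) by genotype. Right, Hyal1 in log2 CPM against the summed CPM of 12 macrophage markers (log axis), with colours for genotypes, symbols for title suffixes and library names beside the points. The Sp3-/- libraries had 2.9 to 5.74 Hyal1 reads per Has2 read, above the 0.689 to 2.18 of all others.

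Set against each other within a library, Hyal1 and Has2 reads placed the Sp3-/- libraries apart. There were 1.60, 1.43, 1.18 and 0.689 Hyal1 reads per Has2 read in WT libraries 468-4, 685-2, 697-1 and 697-3. The Sp3+/- libraries 468-3, 685-5, 685-7 and 697-4 held 2.15, 1.13, 1.02 and 2.18, and the Sp3-/- libraries 685-1, 697-2 and 697-5 held 5.74, 4.27 and 2.90. All 3 Sp3-/- libraries were above all WT and Sp3+/- libraries, which overlapped each other. The ratio needs no scaling between libraries, and it is given as a description, without a test, because it was formed after the values of both genes were known.

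Vcan encodes versican, the large proteoglycan that anchors hyaluronan in loose mesenchymal matrix. It measured 6.65, 8.17, 8.27 and 8.01 log2 CPM in WT libraries 468-4, 685-2, 697-1 and 697-3, and 6.50, 7.19 and 7.07 in Sp3-/- libraries 685-1, 697-2 and 697-5. The 3 WT libraries with suffix 3 lay above every Sp3-/- library, and WT library 468-4, the one without a suffix, lay among them. The Sp3+/- libraries measured 7.71, 7.66, 8.0 and 7.48, with the lowest value in 697-4, the one without a suffix, and all 4 lay above the Sp3-/- range. The log2 fold change of Sp3-/- against WT was -0.95 (SE 0.39, 95% interval -1.86 to -0.04, adjusted p = 0.1187, edgeR). Without WT library 468-4 it was -1.21 and called (adjusted p = 0.0076, edgeR), in a fit that called 29.9% of all genes. With the suffix as a covariate it was -0.17, and against library 468-4 alone it was 0.29, a turn in direction. The libraries without a suffix were also those with macrophage marker sums of 3220 CPM or more, against 387 to 934 CPM in all others, and 468-4 and 697-4 had the lowest lung mesenchyme marker sums of their genotypes (13100 and 14900 CPM). The part of these cell markers in the Vcan level was not tested. DESeq2 also called Vcan lower, with the same libraries as edgeR. Within label numbers 685 and 697 the Sp3-/- minus WT differences were -1.67 and -1.01 log2 CPM. There the WT libraries have suffix 3 and the Sp3-/- libraries none, so these differences do not separate genotype from suffix.

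Acan encodes aggrecan, the hyaluronan-binding proteoglycan best known from cartilage. Its counts were 3, 46, 100 and 15 reads in the WT libraries, 25, 480, 94 and 1 in the Sp3+/- libraries and 0, 5 and 2 in the Sp3-/- libraries, each in the order used above. The level was 3.05 log2 CPM in Sp3+/- library 685-5 and below 0 in WT libraries 468-4 and 697-3, in Sp3+/- library 697-4 and in all Sp3-/- libraries. The ranges of Sp3-/- (-3.93 to -1.91) and WT (-2.74 to 2.04) overlapped through library 468-4. The log2 fold change was -4.48 with a standard error of 1.59 (95% interval -8.18 to -0.77, adjusted p = 0.0840, edgeR). Without library 468-4 it was -4.90 and called (adjusted p = 0.0234, edgeR), DESeq2 called it with all libraries, and with the suffix covariate it was 0.52. The chondrocyte markers, summed, held 14.8 to 23.4 CPM in WT and 10.2 to 14.3 in Sp3-/- libraries, and none of the 5 tested was called.

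Hapln1 encodes a link protein that locks these proteoglycans onto hyaluronan, and it stayed below the CPM filter. It was counted with 11, 12, 9 and 1 reads in WT, 5, 52, 16 and 2 in Sp3+/- and 9, 9 and 4 in Sp3-/- libraries. The highest and the lowest level were in Sp3+/- library 685-5 and WT library 697-3, so the genotypes overlapped. When every gene with a count was tested, its log2 fold change against WT was -0.42 (SE 0.83, adjusted p = 0.7684, edgeR), and no difference was detectable at this depth.

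Cd44, the main cell surface receptor for hyaluronan, was the most abundant of the 10 per kilobase in all genotypes and was not called. In CPM, without regard to length, Vcan had the higher mean in WT (239 against 173) and in Sp3+/- cells (211 against 169). It measured 7.82, 7.38, 7.04 and 7.40 log2 CPM in WT, 7.34, 7.07, 7.47 and 7.66 in Sp3+/- and 6.93, 7.48 and 7.79 in Sp3-/- libraries. The Sp3-/- libraries spanned more than the WT range on the low side, and the groups overlapped. The log2 fold change of Sp3-/- against WT was 0.01 (SE 0.25, adjusted p = 0.9751, edgeR), with a 95% interval of -0.56 to 0.59, and its sign changed with upper quartile scaling (-0.06). There were 0.444 to 2.34 Vcan reads per Cd44 read in WT, 0.881 to 1.5 in Sp3+/- and 0.606 to 0.821 in Sp3-/- libraries, with the lowest value of all in WT library 468-4.

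Tnfaip6 encodes TSG-6, a secreted protein that transfers heavy chains of inter-alpha-inhibitor to hyaluronan and is induced in inflammation. It measured 0.81, 2.08, 1.51 and 1.53 log2 CPM in WT, 1.79, 1.70, 1.53 and 1.00 in Sp3+/- and 1.67, 1.00 and -0.05 in Sp3-/- libraries. Library 697-5, the shallowest of all, was the lowest with 9 reads, and 685-1 was higher than 3 of the 4 WT libraries. The fitted change was -0.48 on the log2 scale (SE 0.45, 95% interval -1.52 to 0.55, adjusted p = 0.4596, edgeR), with -0.19 without library 697-5 and -0.95 without library 685-1.

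**Figure D3:**
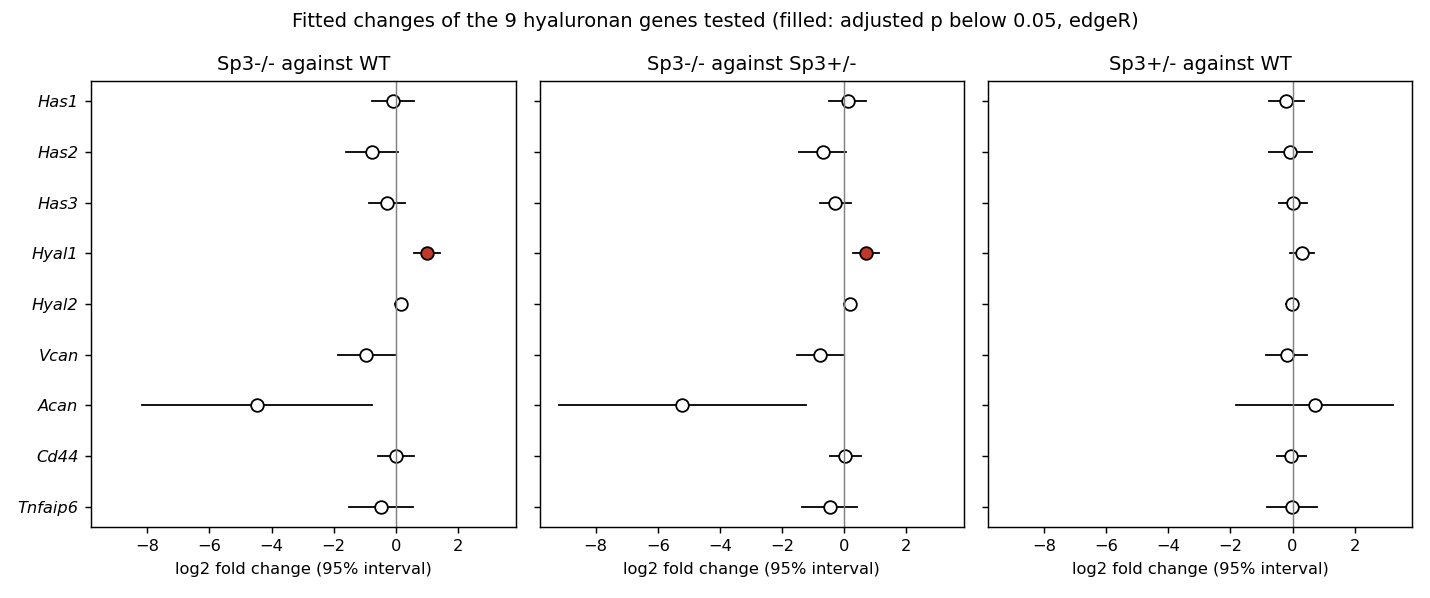
Fitted log2 fold change (points) with its 95% interval (lines) for the 9 genes tested, in 3 comparisons that share libraries. Filled points mark an adjusted p below 0.05 with edgeR. Hyal1 is filled against WT (1.00) and against Sp3+/- (0.69), no point is filled for Sp3+/- against WT, and Acan has the widest intervals.

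Sp3+/- cells were compared with WT cells to see whether the loss of 1 allele changed these mRNAs. None of the 9 genes tested was called, and neither was any of the 14130 genes tested (0%), with 246 at an unadjusted p below 0.05 by edgeR, 281 by DESeq2 and 303 by limma-voom, which also called none. Sp3 itself was not called either, with a log2 fold change of -0.49 (95% interval -0.85 to -0.13, adjusted p = 0.9999, edgeR). The lack of calls therefore does not show that these mRNAs were unchanged. The median log2 fold change of the 9 hyaluronan genes was -0.02, with 3 higher and 6 lower. The widest fitted changes were those of Acan (0.71, 95% interval -1.82 to 3.24), Hyal1 (0.30, -0.09 to 0.69) and Has1 (-0.20, -0.75 to 0.36). Single libraries moved these values, with Has1 between -0.35 and -0.07, Acan at -0.52 without Sp3+/- library 685-5, at 0.32 without WT library 468-4 and at 1.46 without WT library 697-1, and Hyal1 at 0.13 without Sp3+/- library 697-4. The intervals of Has2 (-0.76 to 0.62) and Vcan (-0.85 to 0.48) leave room for changes as large as those fitted for Has2 in Sp3-/- cells. Hyal2 had the narrowest interval, from -0.20 to 0.16. 

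The comparison of Sp3-/- with Sp3+/- cells shares the Sp3-/- libraries with the comparison with WT, and its values are set beside those above without a count of agreement. Of all genes tested, 25.5% were called (13% higher and 12.5% lower). Of the 9 hyaluronan genes, Hyal1 was called, higher in Sp3-/- cells, with a log2 fold change of 0.69 (SE 0.19, 95% interval 0.27 to 1.11, adjusted p = 0.0256, edgeR). The ranges met, since Sp3+/- library 697-4 (5.50) lay above Sp3-/- library 685-1 (5.42), and without 697-4 the change was 0.86. The call was lost in 5 of 7 fits with 1 library fewer, those without 468-3, 685-5, 685-7, 697-2 or 697-5, and with the suffix covariate. Has2 had a change of -0.69 (adjusted p = 0.1607, edgeR) and was called lower by limma-voom. Vcan, whose Sp3-/- and Sp3+/- libraries did not overlap, had a change of -0.77 (95% interval -1.51 to -0.04, adjusted p = 0.1102, edgeR). How many of all genes also did not overlap was not counted. Acan had a change of -5.21 with a standard error of 1.80 (adjusted p = 0.0562, edgeR), and without Sp3+/- library 697-4 it was called (-5.61, adjusted p = 0.0273, edgeR). With the suffix as a covariate, Acan was at -0.39 (adjusted p = 0.9308) and Vcan at -0.18 (adjusted p = 0.7514, edgeR). The remaining 5 genes had changes between -0.47 (Tnfaip6) and 0.18 (Hyal2).

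**Figure D4:**
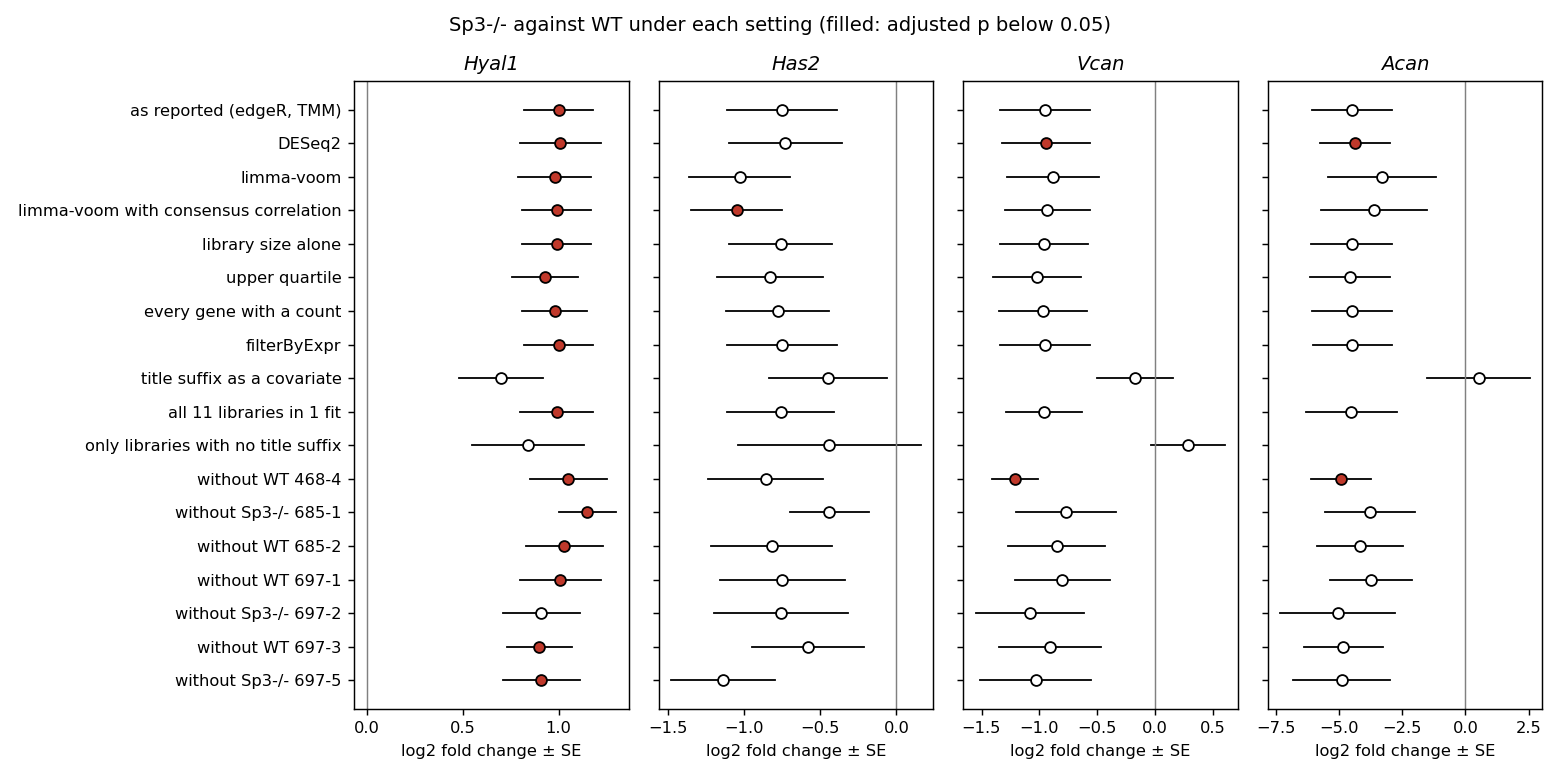
Log2 fold change of Hyal1, Has2, Vcan and Acan in Sp3-/- against WT cells (horizontal axes, points with SE) under each setting (rows) except the label number as a block. That setting, in which all 4 were called, is not drawn, and within its blocks genotype cannot be told apart from suffix. Filled points mark an adjusted p below 0.05. Hyal1 stays above 0 in each setting shown, whereas Vcan moves to -0.17 with the title suffix as a covariate and to 0.29 when only libraries without a suffix are compared, a setting in which Acan was not tested.

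Genes whose pattern over the 11 libraries was most like that of Has2 were sought by the root mean square difference of centred log2 CPM over 11203 genes. Brinp1 (0.21), Fjx1 (0.22) and Chn1 (0.23) were nearest, against a spread of Has2 itself of 0.59. For Vcan, with a spread of 0.60, the nearest were Agpat9, Ccnf and Lphn2, each at 0.21.

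Around the 10 genes, 39 other genes of hyaluronan biology were counted and 29 of them tested. In Sp3-/- against WT cells 2 rose and 4 fell, which is 20.7% of the 29, near the 18.5% of all genes tested, with a median log2 fold change of -0.16. The 7 genes that make the UDP-sugar building blocks of hyaluronan gave no call, and their median was also -0.16. The largest change among them was that of Pgm3, an enzyme of UDP-N-acetylglucosamine synthesis, with -0.34 (adjusted p = 0.0706, edgeR).

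Of 5 other genes of hyaluronan cleavage reported here, 1 fell. Cemip, a hyaluronan-binding protein needed for hyaluronan breakdown by fibroblasts, fell from 509 to 866 CPM in WT libraries to 96 to 248 in Sp3-/- libraries, with a log2 fold change of -2.15 (SE 0.36, adjusted p = 0.0138, edgeR). Its Sp3+/- libraries held 515 to 780 CPM, so the Sp3-/- libraries lay apart from both other genotypes. The share of all genes that do so was not counted. Gusb, the lysosomal glucuronidase that trims the fragments left by hyaluronidases, had a change of 0.86 against WT (adjusted p = 0.0951, edgeR) and was called higher against Sp3+/- cells (0.99, adjusted p = 0.0300, edgeR).

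Of 4 other receptors tested, Stab1, a scavenger receptor of macrophages and sinusoidal endothelium in the family of hyaluronan clearance receptors, rose by 2.90 (SE 0.53, adjusted p = 0.0166, edgeR). It held 45.9 to 153 CPM in WT, 40.6 to 248 in Sp3+/- and 295 to 992 in Sp3-/- libraries, beside the macrophage marker sums given above, whose part in the Stab1 level was not tested. Bcan, a lectican mainly of brain, fell by 1.43 on the log2 scale (adjusted p = 0.0428, edgeR) at a level of 1.25 to 2.5 CPM in WT. Hapln3, a link protein, had the largest change of its class, -1.79, which was not called (adjusted p = 0.0570, edgeR). Itih2, which encodes a heavy chain that Tnfaip6 transfers, fell by 3.94 (SE 0.89, adjusted p = 0.0276, edgeR), from 2.95 to 20.8 CPM in WT to 0.501 to 1.04 in Sp3-/- libraries.

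Among 7 proteases that cut versican or aggrecan, Adamts1 fell by 1.15 (adjusted p = 0.0376, edgeR), from 216 to 319 CPM in WT to 75.8 to 171 in Sp3-/- libraries. Adamts20 rose by 1.78 (adjusted p = 0.0431, edgeR), at no more than 1.32 CPM in any Sp3-/- library. Sp3-/- library 697-5, with 0.4005 CPM from 4 reads, lay within the WT range of 0.168 to 0.404 CPM. The Sp3+/- libraries held 0.496 to 1.09 CPM, and the Adamts20 change of Sp3-/- against Sp3+/- cells was 0.26 (adjusted p = 0.6683, edgeR). Against Sp3+/- cells, Gusb and Stab1 were called higher and Cemip, Itih2, Adamts1 and Adamts8 lower, which is 20.7% of the 29, below the 25.5% of all genes. In Sp3+/- against WT cells none was called. With the suffix as a covariate, 4 of the 29 were called against WT, namely Cemip, Bcan, Adamts20 and Hapln3, beside 9.41% of all genes. Without Sp3-/- library 697-2 none of the 29 was called, in a fit that called 2.01% of all genes.

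**Figure D5:**
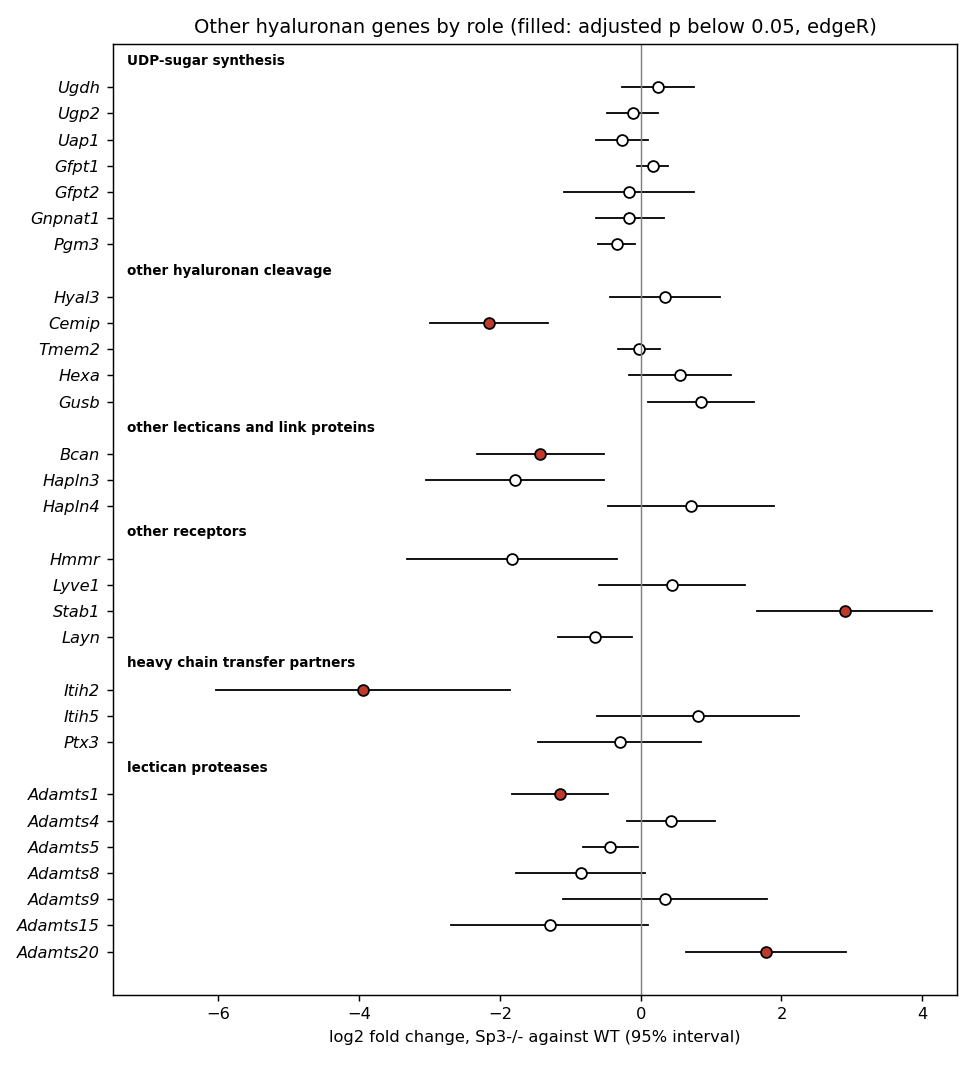
Fitted log2 fold change (points) with its 95% interval (lines) of the 29 other hyaluronan genes tested in Sp3-/- against WT cells, grouped by role. Filled points mark the 6 genes with an adjusted p below 0.05 with edgeR, of which Stab1 and Adamts20 lie above 0 and Cemip, Bcan, Itih2 and Adamts1 below.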

How the data were processed

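The authors made TruSeq libraries from TRIzol RNA, sequenced 50 bp single end reads, checked them with FastQC 0.10.1, aligned them with STAR 2.4.5a to mm10 and counted reads per gene with HTSeq. The deposited values are these raw counts by gene symbol. The annotation version and strand setting are not given in the sources used here. The 5 tallies of reads on no gene, 38.4% to 40.9% of each library, were left out.

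TMM-normalized counts were fitted in R 4.3.3 with robust quasi-likelihood models of edgeR 4.0.16 (glmQLFit, glmQLFTest). Sp3-/- was compared with WT in a fit of these 7 libraries, and comparisons with Sp3+/- used all 11. Fits with the title suffix as a covariate used all 11 libraries in every comparison, that with WT included. Genes needed CPM above 1 in at least 1 library, and each standard error was derived from the fold change and its test statistic. The log2 CPM of single libraries used a prior count of 2. All 10 genes are named, and of the other hyaluronan genes those called and the largest change of each role. A listed item is not reported here. The genes and lists were chosen with earlier results of these data known. Likeness was sought among genes with a mean above 2 log2 CPM. Alternatives were DESeq2 1.42.0, limma-voom (limma 3.58.1) without and with a consensus correlation, other scaling and filters, the title suffix as a covariate, the label number as a block, all 11 libraries in 1 fit, libraries without a suffix only, and each library left out. On simulated data the fit recovered 80 of 100 4-fold changes and 40 of 100 2-fold changes, and it called 10 unchanged genes. No other genes of the 13765 simulated were changed, a smaller share than the 18.5% called in the data, so these recovery rates need not hold here. Changes of about 2-fold can be missed, at a rate not known for these data. Gene positions are those of GRCm38.p6. Libraries of the same genotype differed by more than counting noise (lowest chi-square per degree of freedom 16.7). Intervals cover the spread between libraries.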

Additional observations from a re-analysis of the deposited data

Results flagged for a closer look

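The Vcan level of WT library 468-4 (6.65 log2 CPM) stood apart from the other 3 WT libraries (8.01 to 8.27). Its gap to the nearest of them was 0.845 of the group's whole range, above Dixon's 95% critical value for 4 samples. It was the only such value among 20 groups of 4 libraries examined, and chance flags about 1 in 20 groups. Library 468-4 is the only WT library without a title suffix, and Sp3+/- library 697-4, also without one, had the lowest Vcan level of its genotype. Values of the Sp3-/- against WT comparison without library 468-4 are given beside Vcan and Acan above. The macrophage marker sums of these libraries, 3450 and 3220 CPM, were above those of all other WT and Sp3+/- libraries (387 to 934 CPM), and their lung mesenchyme sums, 13100 and 14900 CPM, were below those of the same libraries (20800 to 22300 CPM). Suffix and cell markers cannot be told apart here.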

How the results depend on the processing

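In Sp3-/- against WT cells, 1 of the 9 hyaluronan genes was called as reported. The count was 3 with DESeq2 (Hyal1, Vcan and Acan), 2 with limma-voom and a consensus correlation (Has2 and Hyal1), 0 with the suffix covariate, 0 with only libraries without a suffix, and 0 to 3 with a library left out (3 without WT 468-4, 0 without Sp3-/- 697-2). These fits called 30.6%, 21.6%, 9.41%, 0%, 29.9% and 2.01% of all genes, respectively, against 18.5% as reported. Hyal1 kept its direction in all 18 alternatives and its call in 15. The call was lost in both settings that took the title suffix into account, and without Sp3-/- library 697-2. None of the settings that kept the call separates genotype from suffix. Against Sp3+/- cells the count was 2 with DESeq2, limma-voom or limma-voom with a consensus correlation, 0 with the suffix covariate or the block, and 0 to 2 with a library left out. These fits called 32.8%, 26.2%, 26.1%, 5.4% and 20.9% of all genes, respectively, and 10.6% to 26.3% with a library left out, against 25.5% as reported. Of the 29 other hyaluronan genes, 6 were called as reported, 11 with DESeq2 or with all 11 libraries in 1 fit (28.1% of all genes), 4 with the suffix covariate, 0 with only libraries without a suffix and 0 to 7 with a library left out (0 without 697-2, 1 without 685-2, 2 without 697-1 or 697-3). The fits without 685-2, 697-1 and 697-3 called 6.39%, 5.48% and 5.74% of all genes.

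With the first label number as a replicate block, 4 hyaluronan genes were called against WT, namely Hyal1 (1.04), Has2 (-0.94), Vcan (-1.24) and Acan (-4.92), in a fit that called 28.7% of all genes. In this fit number 468 held WT library 468-4 alone, so that library did not inform the genotype difference. In numbers 685 and 697 all WT libraries have suffix 3 and all Sp3-/- libraries have none. The block therefore cannot tell genotype from suffix. Against Sp3+/- cells the block left Hyal1 at 0.62 (adjusted p = 0.0558, edgeR). Same-numbered libraries of different genotypes did not deviate together throughout (14 pairs, correlations -0.62 to 0.34, 7 above 0.1), so the numbers are not shown to pair the libraries.

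Against WT, directions turned with the suffix covariate for Has1 (0.47), Acan (0.52), Cd44 (-0.33) and Tnfaip6 (0.18), and with only libraries without a suffix for Has1 (0.51), Vcan (0.29), Cd44 (-0.38) and Tnfaip6 (0.26). Cd44 also turned with upper quartile scaling (-0.06) and with every gene with a count (-0.01), and ranged from -0.22 to 0.21 with a library left out. Has1 ranged from -0.25 to 0.03. In Sp3+/- against WT cells the turns were Has2 with the suffix covariate (0.12) and the block (0.02), Has3 with DESeq2 (-0.01) and both forms of limma-voom (-0.03), Vcan with the suffix covariate (0.00), Cd44 with the block (0.03) and Tnfaip6 with limma-voom without (0.13) and with (0.14) a consensus correlation. With a library left out, Has2 ranged from -0.18 to 0.10, Has3 from -0.11 to 0.10, Hyal2 from -0.09 to 0.03, Acan from -0.52 to 1.46, Cd44 from -0.15 to 0.12 and Tnfaip6 from -0.19 to 0.22. Against Sp3+/- cells Cd44 turned with upper quartile scaling (-0.03) and the suffix covariate (-0.27), and Tnfaip6 with the suffix covariate (0.21), and with a library left out Cd44 ranged from -0.19 to 0.25 and Has1 from -0.02 to 0.23. The cause of these turns was not tested. The number of libraries per genotype, and for Acan, Hapln1, Has1, Has3 and Tnfaip6 the few reads counted, limit what could be detected.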
